A study of Mus musculus with 16 samples.

Results

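Whole tissue of 2 brain regions was compared in the same mice: the striatum, the main input station of the basal ganglia, and the hippocampus, the cortical fold in which new memories are formed. The libraries were chosen by their titles, which mark a cleared tissue lysate ("input") of either region and the number of the animal, and they make up 8 of the 16 libraries of the series, with 4 striatal and 4 hippocampal inputs. The other 8 libraries hold RNA precipitated with astrocyte ribosomes (IP) from the same lysates and are used only for a comparison near the end. All 4 animals, numbered 970, 971, 974 and 977, were hemizygous for Aldh1l1-creERT2, a drug-inducible Cre recombinase driven by an astrocyte gene, and heterozygous for Ribotag, an allele that puts a hemagglutinin tag on the ribosomal protein Rpl22 once Cre has acted. They were adult mice of both sexes at postnatal day 63, on an FVB background backcrossed to C57/Bl6N for 3 generations (about 88% C57/Bl6N). Controls without the alleles do not enter, and both regions carry the same genotype, so the comparison is one of region within animal. Amplified paired-end libraries were made from 100 ng of RNA each. Values below are scaled FPKM (fragments counted per gene, set relative to gene length and library size and divided by a trimmed-mean factor per library), always in the order of animals 970, 971, 974 and 977 where 4 are listed, and otherwise as mean ± SD over the 4 animals. Differences are given as striatum minus hippocampus in log2 units, after 1 was added to each FPKM, with their SE. The added 1 makes the difference of weakly expressed genes too small. Adjusted p is from limma with the animal as a block.

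Most neurons of the striatum are inhibitory projection neurons that receive dopamine. Those of the direct pathway make the dopamine receptor Drd1a and the peptides substance P and dynorphin, and those of the indirect pathway make the receptors Drd2 and Adora2a and the peptide enkephalin. Dopamine at Drd1a and adenosine at Adora2a raise cyclic AMP through a G protein and an adenylyl cyclase that few other neurons share. Dopamine at Drd2 lowers it. In the hippocampus the principal cells are excitatory: pyramidal neurons of the CA fields and granule neurons of the dentate gyrus, which load glutamate into vesicles with the transporter Slc17a7. A whole-tissue library mixes the RNA of all cells, so fewer cells of a type and less RNA per cell cannot be told apart in any value below.

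Estimated depth was 8980000 to 12170000 counted fragments in the hippocampal inputs and 4120000 to 8910000 in the striatal inputs, and 17227 to 17658 and 15484 to 17399 genes had a value above 0. Striatal inputs 971 and 974 stood apart from the other 6 libraries. Against the hippocampal mean, the median gene of the fifth with the lowest GC content was higher by 0.39 and 0.59 (log2) in these libraries, and the median gene of the fifth with the highest GC content lay at -0.54 and -0.85. In striatal inputs 970 and 977 the same medians were 0.13 and 0.03 at low GC content and -0.10 and 0.00 at high GC content. Striatal inputs 971 and 974 also had the lowest depth of the 8 libraries. Counts over lists are given with and without animals 971 and 974. The fit without them rests on animals 970 and 977 alone. The 49 lists hold 1002 entries, of which 859 passed the filter of 1 FPKM in at least 4 of the 8 inputs and were tested. A gene near 0 in one region can pass this filter through the other region alone, so the counts and medians of tested genes describe those genes and not whole lists. Counts over all genes are also given with the GC trend of each library removed, an alternative chosen after the data were seen that would also remove a true difference between the regions that follows GC content. Xist, the transcript of the inactive X chromosome, stood at 32.4, 46.7, 0.0859 and 0.0824 in the striatal inputs and 15.6, 20.9, 0.0526 and 0.0180 in the hippocampal inputs, so the 2 libraries of each animal matched and animals 971 and 974 differed in this transcript. Aldh1l1, the gene behind the Cre driver, was at 5.18 ± 1.48 in hippocampus and 5.14 ± 1.34 in striatum (adjusted p = 0.99). Rpl22, the tagged gene, was at 4.49 ± 0.0910 and 3.69 ± 0.643 (adjusted p = 0.24).

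**Figure D1:**
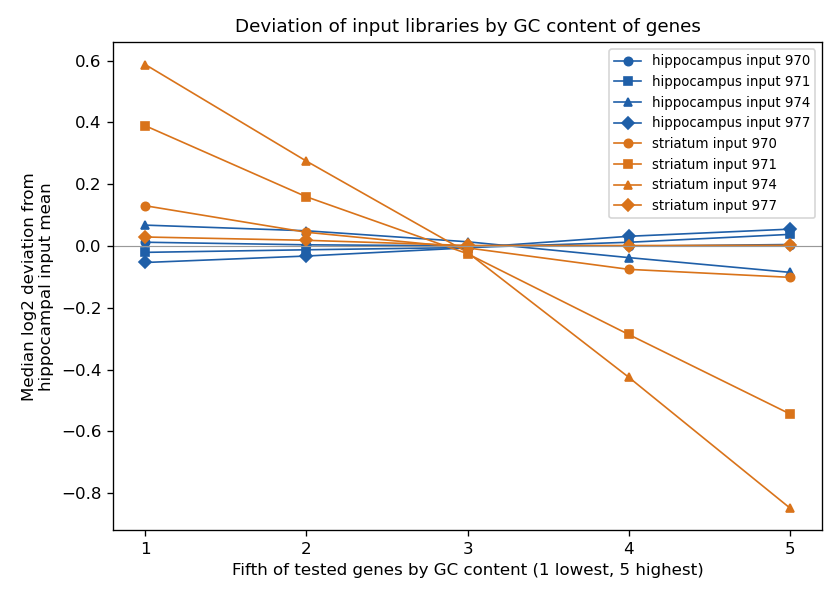
Median deviation of each input library from the hippocampal mean (y axis, log2) in 5 equal groups of genes ordered by GC content of the longest transcript (x axis); each line is a library, blue for hippocampus and orange for striatum. The lines of striatal inputs 971 and 974 run from 0.39 and 0.59 down to -0.54 and -0.85, while the other 6 stay near 0.

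Of 12805 genes tested, 3767 (29.4%) differed between the regions at adjusted p under 0.05, 1804 (14.1%) higher in striatum and 1963 (15.3%) higher in hippocampus. All but 12 of the called genes moved the same way in the 4 animals (3755 of 3767). A call with the animal as a block already requires similar differences within animals, so this agreement is not separate support. Differences above 1 on the log2 scale were found for 689 genes higher in striatum and 830 higher in hippocampus, and differences above 4 for 20 and 10. The 4 striatal libraries lay above all 4 hippocampal libraries for 2173 genes (17.0%) and below all of them for 2212 (17.3%). Without animal 971 the count fell to 1746, and without animals 971 and 974 together it was 3698 (28.1% of 13165), of which 2872 were also among the calls over all 4 animals and none of those had the opposite sign. With the GC trend removed 3966 genes were called (31.2%), 3121 of them shared and again none opposite. These fits reuse libraries of the main fit, so the common sign is not separate support.

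The largest differences in favour of the striatum included receptor, peptide and signalling genes known from its projection neurons. Penk, the enkephalin precursor gene, was at 894, 996, 869 and 783 in the striatal inputs against 10.7, 9.81, 10.9 and 11.5 in the hippocampal inputs, a difference of 6.24 ± 0.13 (adjusted p = 9.34e-06). Every striatal library exceeded every hippocampal library for this gene. Drd2 differed by 6.75 ± 0.31. Cd4, known in the immune system as a T cell coreceptor gene, had a difference of 5.86 ± 0.17, and Scn4b, a sodium channel beta subunit gene, of 5.86 ± 0.12. Cd4 stood at 68.4, 77.2, 85.9 and 54.8 in striatum and 0.309, 0.267, 0.103 and 0.277 in hippocampus. Among the others of the 20 largest, 15 were Tac1, Rgs9, Syndig1l, Adora2a, Drd1a, Six3, Ido1, Nexn, Ppp1r1b, Pde10a, Ankk1, Coch, Serpina9, Mir5120 and Gpr52, with differences from 5.22 down to 4.03. Nexn, a gene of an actin-binding protein, varied between the striatal libraries: it was at 56.8, 108, 193 and 38.8 in striatum, highest in 971 and 974, and at 2.73, 2.59, 2.20 and 1.31 in hippocampus. Mir5120 is a short gene with few fragments, at 38.1, 9.78, 30.3 and 49.04 in striatum and 0, 0, 0 and 8.17 in hippocampus. Ankk1 is the neighbour of Drd2 on the opposite strand. Six3 and Ppp1r1b overlap a gene on the other strand, and the sources used here do not say whether strand was used in counting, so reads of such pairs cannot be told apart. Mir5120 lies within Pax5. Mir5120 did not pass without animals 971 and 974 together (adjusted p = 0.079). Drd2 and Nexn differed by 6.07 and 4.05 without animals 971 and 974.

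The largest differences in favour of the hippocampus included genes known from excitatory neurons. Nrn1, which encodes the neurite-promoting surface protein neuritin, was at 138, 147, 142 and 139 in the hippocampal inputs and 1.97, 1.26, 0.533 and 2.94 in the striatal inputs, a difference of -5.82 ± 0.23 (adjusted p = 6.07e-05). Slc17a7, the vesicular glutamate transporter gene, was at 210.3, 221, 164 and 233 against 4.89, 3.30, 1.38 and 5.13, a difference of -5.56 ± 0.18 (adjusted p = 3.62e-05). All hippocampal libraries lay above all striatal ones for both genes. The transcription factor genes Neurod6 (-5.13) and Neurod2 (-4.71), the secreted protein gene Fam19a1 (-4.65) and the cholecystokinin gene Cck (-4.47) came next. The remaining 14 were Shisa6, Prdm8, Cpne7, Slc30a3, Syt17, Nov, Neurod1, Cabp7, Rtn4r, Nptx1, Cpne6, Adra1d, Sertm1 and Gpc4, from -4.20 to -3.46. Among them Slc30a3, the gene of the transporter that fills glutamate vesicles with zinc, was at 18.1, 19.7, 14.8 and 19.3 in hippocampus and 0.145, 0, 0 and 0.623 in striatum. Rtn4r, the Nogo receptor gene, was at 23.6 ± 2.79 and 0.733 ± 0.379. Nrn1, Fam19a1, Slc30a3 and Cabp7 overlap a gene on the other strand, and Neurod1 overlaps Cerkl on its own strand. Of these 40 genes, 39 passed in the same direction without animals 971 and 974. They were chosen with 1 sign in all 4 animals, so their direction in that fit was largely set by the choice.

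**Figure D2:**
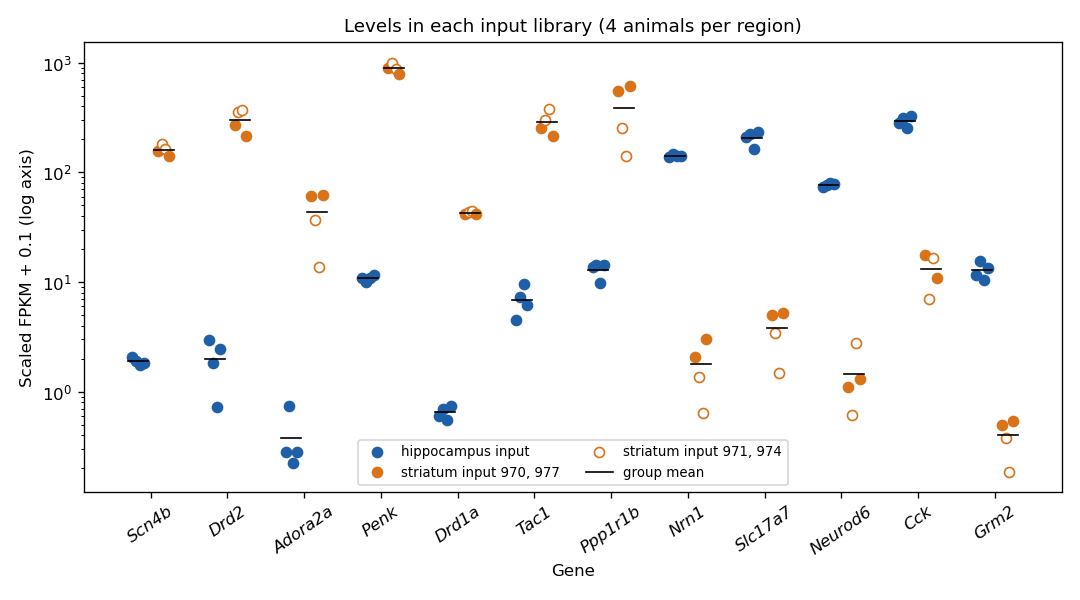
Scaled FPKM plus 0.1 (y axis, logarithmic) of 12 genes in each input library; points are libraries, blue for hippocampus and orange for striatum, open symbols mark striatal inputs 971 and 974, and short bars are group means. The regions do not overlap for any of the 12 genes, and the open symbols sit low for Ppp1r1b and Adora2a.

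The stretches of 250 bases before the annotated starts of the 3 genes of largest difference in each direction that the RefSeq promoter table (build GRCm38.p6) holds are shown here because these genes separate the regions most. Capitals mark TGACG, the core of the cyclic AMP response element (CGTCA where it lies on the other strand), and CAGATG, an E-box of the kind that NeuroD proteins bind (CATCTG on the other strand). Sequences run 5′ to 3′ on the strand of the gene, which is named with the coordinates.
Drd2 (chr9:49340153-49340402, + strand): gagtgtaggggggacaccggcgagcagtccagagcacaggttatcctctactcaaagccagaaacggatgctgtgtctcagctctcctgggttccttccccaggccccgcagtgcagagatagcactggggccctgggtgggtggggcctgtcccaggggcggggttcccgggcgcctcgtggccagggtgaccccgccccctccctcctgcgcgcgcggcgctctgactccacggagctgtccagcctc
Scn4b (chr9:45138374-45138623, + strand): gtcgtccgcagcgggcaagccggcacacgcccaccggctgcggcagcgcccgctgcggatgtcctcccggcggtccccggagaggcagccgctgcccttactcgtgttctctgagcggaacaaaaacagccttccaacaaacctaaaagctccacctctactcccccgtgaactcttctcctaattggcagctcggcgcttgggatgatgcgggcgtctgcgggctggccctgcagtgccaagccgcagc
Tac1 (chr6:7554811-7555060, + strand): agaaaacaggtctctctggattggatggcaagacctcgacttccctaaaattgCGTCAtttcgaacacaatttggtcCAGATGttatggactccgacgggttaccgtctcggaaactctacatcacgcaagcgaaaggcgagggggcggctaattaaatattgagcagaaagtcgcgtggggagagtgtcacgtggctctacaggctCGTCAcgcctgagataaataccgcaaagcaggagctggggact
Slc17a7 (chr7:45163671-45163920, + strand): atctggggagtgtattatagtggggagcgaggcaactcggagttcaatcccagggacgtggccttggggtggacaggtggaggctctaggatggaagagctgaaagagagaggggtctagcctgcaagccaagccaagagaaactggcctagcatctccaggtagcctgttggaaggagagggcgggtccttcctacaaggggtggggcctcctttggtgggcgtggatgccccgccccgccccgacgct
Neurod6 (chr6:55681264-55681513, - strand): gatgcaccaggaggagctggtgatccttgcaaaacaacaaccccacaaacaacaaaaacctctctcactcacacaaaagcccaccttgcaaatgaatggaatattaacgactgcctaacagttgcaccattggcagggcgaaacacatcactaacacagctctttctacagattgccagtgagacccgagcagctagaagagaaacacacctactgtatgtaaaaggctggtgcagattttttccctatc
Neurod2 (chr11:98329646-98329895, - strand): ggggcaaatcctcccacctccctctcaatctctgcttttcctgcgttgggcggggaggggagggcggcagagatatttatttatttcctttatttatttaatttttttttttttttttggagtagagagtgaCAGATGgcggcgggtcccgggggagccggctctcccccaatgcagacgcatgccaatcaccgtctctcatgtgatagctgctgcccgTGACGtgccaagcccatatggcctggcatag
In Tac1, CGTCA began 197 and 43 bases before the start, and CAGATG 173 bases before it. In Neurod2, TGACG began 31 bases and CAGATG 118 bases before the start. The stretches of Drd2, Scn4b, Slc17a7 and Neurod6 held neither set of letters. Of 32536 distinct promoter stretches of this length, 17.9% held TGACG and 14.4% held CAGATG, counting both strands, and 1.56% held the whole element TGACGTCA, which contains the core on each strand. Among the 20 largest striatal genes, 8 had a stretch in the table, of which 1 held TGACG and 3 CAGATG. Among the 20 largest hippocampal genes, 11 had one, of which 4 held TGACG and 3 CAGATG. The whole element was in none of these 19. These letters describe the sequence and do not show binding.

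Genes of the direct pathway were almost all higher in striatum. Of 11 tested genes on this list, 10 were higher in striatum and 1 was lower, with a median of 2.59. Over all genes tested, 14.1% were higher in striatum and 15.3% in hippocampus, with a median of -0.03, and each list below is to be read beside these values. The lists were chosen with earlier results of these data known. Drd1a, Isl1 and Foxp2 here passed the level filter through the striatal libraries alone. On lists below so did Adora2a, Gpr6, Cd4 and Six3, among others. C1ql2, Dsp and Emx1, among others, passed it through the hippocampal libraries alone. An excess over the shares of all genes tested is thus set in part by the choice of genes and by the filter. Drd1a (Drd1 in current naming), the excitatory dopamine receptor gene, was at 41.7, 43.3, 44.1 and 41.6 in striatum and 0.503, 0.589, 0.453 and 0.643 in hippocampus (4.82 ± 0.12, adjusted p = 1.40e-05). Its 4 striatal values had an SD of 1.25 around a mean of 42.7, and the libraries of animals 971 and 974 did not stand apart. Tac1, the substance P precursor gene, was at 252, 299, 381 and 217 against 4.45, 7.23, 9.47 and 6.05 (5.22 ± 0.13). Pdyn, the dynorphin precursor gene, reached 12.2 ± 0.949 against 1.41 ± 0.0725, a difference of 2.45. Isl1, a transcription factor gene of direct pathway neurons, was at 8.56, 8.04, 12.1 and 8.05 in striatum and listed at 0 in every hippocampal library. Eya1 was the exception, at 5.21 ± 0.608 in hippocampus and 3.22 ± 0.517 in striatum (-0.56, adjusted p = 0.037). Without animals 971 and 974, 10 genes were higher and 1 lower, beside 13.1% and 14.9% of all genes tested in that fit. Eya1 did not pass without animal 970, 971, 974 or 977 (adjusted p from 0.069 to 0.14). The call of Eya1 was also lost with no level filter or within animals 971 and 974 (adjusted p from 0.059 to 0.17).

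Of 10 genes on the list of the indirect pathway 9 were tested, and these 9 were higher in striatum, with a median of 3.72. Drd2, the inhibitory dopamine receptor gene, was at 268, 354, 368 and 214 against 2.84, 1.72, 0.618 and 2.37 (6.75 ± 0.31, adjusted p = 7.42e-05). Adora2a, the adenosine receptor gene that opposes it, was at 60.6, 36.9, 13.7 and 61.8 against 0.183, 0.634, 0.122 and 0.179 (4.92 ± 0.35, adjusted p = 2.57e-04). Drd2 was highest in striatal inputs 971 and 974, whereas Adora2a was lowest there, so these 2 genes of the same neurons moved apart in those libraries. Gpr6, an orphan receptor gene, was likewise lowest in these libraries, at 26.3, 11.4, 7.65 and 27.5, against 0.0873, 0.840, 0.291 and 0.0712 in hippocampus (3.72 ± 0.40). Gpr52 was at 39.6 ± 4.03 against 1.55 ± 0.678. The smallest differences on the list were those of the kainate receptor gene Grik3 (0.85) and of the phosphatase gene Ptprm (0.93). Grik3 did not pass without animal 971 (adjusted p = 0.065). The call of Grik3 was also lost unscaled or within animals 971 and 974 (adjusted p from 0.054 to 0.078). Adora2a and Gpr6 differed by 5.77 and 4.74 without animals 971 and 974. For indirect pathway projection neuron genes the counts higher in striatum and in hippocampus were 9 and 0 of 9 tested without animals 971 and 974.

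The 20 genes common to both kinds of projection neuron were all higher in striatum, with a median of 3.05, and so were 20 without animals 971 and 974. Ppp1r1b, which encodes the dopamine-regulated phosphatase inhibitor DARPP-32, was at 556, 251, 141 and 611 in striatum, lowest in 971 and 974, and at 13.5, 14.1, 9.69 and 14.2 in hippocampus (4.60 ± 0.30). Rgs9, which speeds the shutdown of G proteins behind dopamine receptors, was at 119 ± 23.1 against 2.46 ± 0.369 (5.10 ± 0.12). Syndig1l was at 70.6 ± 31.4 against 1.16 ± 0.571. The smallest difference was that of Bcl11b, the Ctip2 transcription factor gene, at 21.2 ± 1.96 against 9.96 ± 1.20 (1.02 ± 0.12). Ppp1r1b differed by 5.29 without animals 971 and 974.

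The genes between receptor and cyclic AMP divided by isoform. Of 36 cyclic nucleotide and G protein genes tested, 21 were higher in striatum and 9 higher in hippocampus, and the counts were 20 and 8 without animals 971 and 974. Gnal, the alpha subunit of the stimulating G protein of striatal neurons, was at 255 ± 97.2 in striatum and 27.1 ± 2.87 in hippocampus (3.12 ± 0.17). Gnas, its widespread relative, went the other way, at 21.8 ± 3.03 and 64.4 ± 3.29 (-1.53 ± 0.12). The adenylyl cyclase gene Adcy5 was higher in striatum (3.20), and Adcy1 (-1.76), Adcy2 (-1.18), Adcy9 (-0.86) and Adcy8 (-0.84) were higher in hippocampus. Among gamma subunits, Gng7 was at 138 ± 36.9 in striatum and 21.5 ± 1.20 in hippocampus (2.59), while Gng2 stood at 3.89 ± 1.11 and 20.6 ± 2.23 (-2.17). The phosphodiesterase genes divided as well: Pde10a (4.32), Pde7b (3.44) and Pde1b (3.05) were higher in striatum, and Pde1a (-2.32) in hippocampus. Of the protein kinase A genes, Prkar2b (2.53) and Prkacb (0.92) were higher in striatum and Prkaca (-0.70) in hippocampus. Rgs4 (2.53) and Rgs2 (2.62) accompanied Rgs9, and Rgs14, a gene of pyramidal neurons of the CA2 field, had the opposite sign (-0.70, adjusted p = 0.030). Adcy9, Adcy8 and Prkaca did not pass without animal 971 (adjusted p from 0.051 to 0.066). Rgs14 did not pass without animal 970, 971 or 974 or without animals 971 and 974 together (adjusted p from 0.069 to 0.11). The call of Rgs14 was also lost with GC correction, with 16 libraries in the fit, with 16 libraries and no block, with no level filter, without the block or without striatal inputs 971 and 974 and the block (adjusted p from 0.054 to 0.15). Rgs14 differed by -0.34 with GC correction. Cyclic nucleotide and G protein signalling genes higher in striatum and in hippocampus numbered 20 and 5 without animal 971.

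Genes of cholinergic neurons, large striatal interneurons that release acetylcholine, were read from a list of 10, of which 6 passed the level filter and 5 were higher in striatum. Without animals 971 and 974 the filter left 8, and 8 were higher. Chat, Slc5a7 and Lhx8 passed the filter through the striatal libraries alone, so these shares are set in part by the filter. Chat, the gene of the enzyme that makes acetylcholine, was at 5.54, 8.11, 7.003 and 7.89 in striatum and 0, 0.197, 0 and 0.0834 in hippocampus (2.92 ± 0.14). Slc5a7, the choline transporter gene, was at 16.9 ± 4.07 against 0.306 ± 0.275 (3.77). Lhx8, a transcription factor gene of these cells, was at 5.66, 6.99, 3.36 and 9.52 in striatum and listed at 0 in the 4 hippocampal libraries. Ache, the gene of the degrading enzyme, was at 3.76 ± 2.53 and 3.18 ± 0.733 (adjusted p = 0.94), and at 0.70 on the log2 scale without animals 971 and 974. Ache passed without animals 971 and 974 (0.70, adjusted p = 0.027).

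Interneuron genes moved in both directions, with 5 of 17 higher in striatum and 6 higher in hippocampus. Among the hippocampal ones were the peptide gene Vip (5.75 ± 0.958 against 0.510 ± 0.529, -2.21), the calretinin gene Calb2 (4.51 ± 0.818 against 0.222 ± 0.167, -2.17) and the potassium channel gene Kcnc2 (-2.20). Npy, neuropeptide Y, was higher in striatum, at 73.8, 65.3, 69.7 and 64.7 against 31.5, 42.9, 24.05 and 26.3 (1.14 ± 0.17, adjusted p = 0.0038). Sst, the somatostatin gene, was at 316, 343, 429 and 276 in striatum and 498, 409.6, 385 and 393 in hippocampus (adjusted p = 0.18), and at -0.59 without animals 971 and 974, which passed (adjusted p = 0.0047). Pvalb, the parvalbumin gene, was at 9.02, 3.31, 1.28 and 7.49 against 9.23, 8.67, 9.78 and 11.6 and did not pass (adjusted p = 0.071). On the list of GABA neuron genes, 9 of 13 tested were higher in striatum and 1 in hippocampus. The enzymes of GABA synthesis, Gad1 (88.6 ± 10.6 against 39.4 ± 1.71, 1.14) and Gad2 (296 ± 71.1 against 88.5 ± 7.50, 1.71), and the vesicular GABA transporter gene Slc32a1 (1.37) were higher in striatum. Sst passed unscaled (-0.43, adjusted p = 0.044). Pvalb passed without animal 970 (-1.31, adjusted p = 0.028), with 16 libraries in the fit (-0.95, adjusted p = 0.015), with 16 libraries and no block (-0.95, adjusted p = 0.035) and within animals 971 and 974 (-1.67, adjusted p = 0.0099). For interneuron genes the counts higher in striatum and in hippocampus were 5 and 8 of 18 tested without animals 971 and 974, and for GABA neuron genes 9 and 2 of 13.

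On the hippocampal side, 13 of 19 tested genes of CA pyramidal neurons were higher in hippocampus and 0 higher in striatum, with a median of -1.81. Nov (Ccn3 in current naming), a secreted matrix protein gene, was at 35.6, 30.9, 31.5 and 44.5 in hippocampus and 1.16, 0.630, 3.41 and 0.965 in striatum (-3.95 ± 0.28). Spink8, a protease inhibitor gene of CA1 neurons, was at 46.8, 43.2, 32.95 and 39.3 against 3.65, 7.72, 11.1 and 6.61 (-2.40 ± 0.28). Nr3c2, the mineralocorticoid receptor gene, was at 39.1, 42.9, 41.2 and 40.7 against 11.1, 10.6, 10.4 and 11.8 (-1.81 ± 0.11), with narrow spread on both sides. Not every name on this list separated the regions: Wfs1 was at 44.8 ± 4.01 in hippocampus and 54.5 ± 11.5 in striatum (adjusted p = 0.18), and Necab2 at 18.3 ± 2.43 and 34.5 ± 16.3 (adjusted p = 0.082). Without animals 971 and 974 these 2 genes were higher in striatum (0.43 and 1.37), which made the counts 13 and 2. Wfs1 passed with GC correction (0.63, adjusted p = 0.0071). Necab2 passed with GC correction (1.21, adjusted p = 0.0012) and without animal 974 (1.01, adjusted p = 0.030).

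Dentate granule genes were higher in hippocampus for 15 of 20 genes, with a median of -1.07. C1ql2, which encodes a secreted synaptic organiser of mossy fibres, was at 13.7, 8.67, 9.48 and 8.86 in hippocampus and 0.0724, 0, 0 and 0.311 in striatum (-3.34 ± 0.18). Dsp, the desmoplakin gene, was at 7.71, 6.93, 6.51 and 4.67 against 0.0756, 0.0194, 0 and 0.0108 (-2.84 ± 0.16). Prox1, the transcription factor gene that sets granule cell fate, was at 48.2 ± 4.93 against 9.33 ± 1.36 (-2.25). The 3 genes higher in striatum were Pdzd2 (1.89), Calb1 (1.19) and Dock10 (0.50, adjusted p = 0.04996). Calb1 encodes calbindin, which striatal projection neurons also make, and it was at 59.5 ± 12.4 in striatum against 25.2 ± 2.65 in hippocampus. The counts were 16 and 2 without animals 971 and 974. Dock10 did not pass without animal 971, 974 or 977 or without animals 971 and 974 together (adjusted p from 0.10 to 0.19). The call of Dock10 was also lost with GC correction, with 16 libraries in the fit, with 16 libraries and no block, with no level filter, without the block, unscaled, with an untrended variance, with pseudocount 0.1 or without striatal inputs 971 and 974 and the block (adjusted p from 0.053 to 0.27). Dock10 differed by 0.33 with GC correction.

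Genes of pallial glutamatergic neurons in general were higher in hippocampus for 18 of 22 genes. Cck was at 281, 313, 253 and 328 in hippocampus and 17.7, 6.89, 16.5 and 10.8 in striatum (-4.47 ± 0.26), and Nptx1, a secreted pentraxin that gathers glutamate receptors, was at 91.4 ± 8.54 against 5.96 ± 2.03 (-3.78). The kinase gene Camk2a was at 470.3 ± 22.9 against 231 ± 57.4 (-1.06), a smaller gap. Slc17a6, the second vesicular glutamate transporter gene and a marker of thalamus, was at 4.36, 6.36, 2.95 and 5.84 in hippocampus and 0.369, 0.129, 0.534 and 2.55 in striatum (-1.75 ± 0.29). Camk2b was at 85.5 ± 4.003 and 65.4 ± 15.1 (adjusted p = 0.081). Kcnip3 was the 1 member higher in striatum (0.61). Kcnip3 did not pass without animal 970 or 971 (adjusted p from 0.064 to 0.077). Camk2b passed within animals 971 and 974 (-0.65, adjusted p = 0.014). For cortical and pallial glutamatergic neuron genes the counts higher in striatum and in hippocampus were 1 and 18 of 22 tested without animals 971 and 974.

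**Figure D3:**
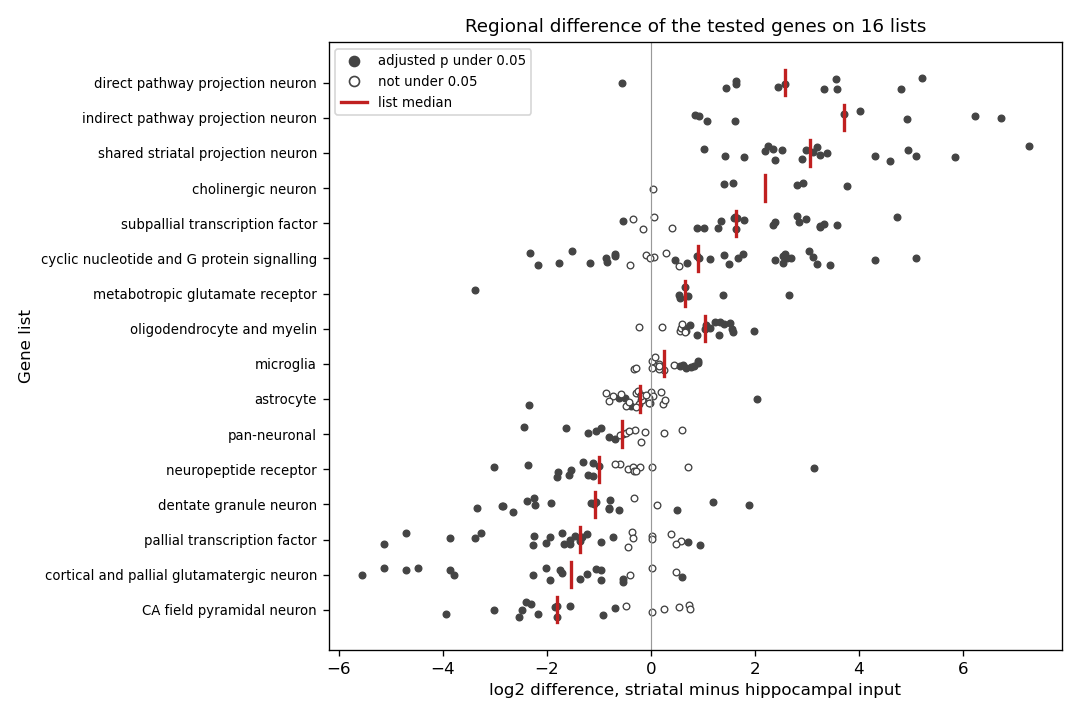
Difference between striatal and hippocampal input (x axis, log2, striatum minus hippocampus) of each tested gene on 16 gene lists (y axis); filled points had adjusted p under 0.05, open points did not, and vertical bars are list medians. Projection neuron lists lie to the right and pallial neuron lists to the left, and the myelin list lies to the right with a median of 1.05.

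Transcription factor genes of the embryonic subpallium, where the striatum arises, were higher in striatum for 19 of 24 genes and higher in hippocampus for 1, with a median of 1.65. Some of them also stand on the neuron lists above. Six3, a homeobox gene of indirect pathway neurons, was at 34.1, 30.5, 22.9 and 28.4 in striatum and 0.259, 0.0498, 0.0288 and 0.127 in hippocampus (4.74 ± 0.13). Foxp2, linked to vocal learning, was at 13.2 ± 5.02 against 0.137 ± 0.0405 (3.57), Meis2 at 31.03 ± 6.96 against 2.33 ± 0.321 (3.25) and Pbx3 at 28.95 ± 5.08 against 2.13 ± 0.480 (3.26). Of the Dlx homeobox genes, Dlx6 (2.34) and Dlx5 (1.65) were higher in striatum, and Dlx1 was at 1.77, 3.82, 7.98 and 2.46 in striatum and 4.05, 4.32, 3.43 and 4.28 in hippocampus (adjusted p = 0.73). Foxp4 was the 1 gene higher in hippocampus (-0.55). Of 13 tested retinoid genes, 2 were higher in striatum and 3 in hippocampus: the receptor gene Rarb (9.97 ± 2.73 against 0.358 ± 0.135, 2.99) and its partner Rxrg (2.86) were higher in striatum, and Rara (0.395 ± 0.140 against 2.17 ± 0.564, -1.17) was higher in hippocampus. Foxp4 did not pass without animal 970, 971, 974 or 977 or without animals 971 and 974 together (adjusted p from 0.064 to 0.13). The call of Foxp4 was also lost with GC correction, within animals 971 and 974 or without striatal inputs 971 and 974 and the block (adjusted p from 0.093 to 0.74). Foxp4 differed by -0.084 with GC correction. Dlx1 passed without animals 971 and 974 (-0.75, adjusted p = 0.027). Retinoid genes higher in striatum and in hippocampus numbered 4 and 1 without animal 971. For subpallial transcription factor genes the counts higher in striatum and in hippocampus were 19 and 1 of 24 tested without animals 971 and 974, and for retinoid genes 5 and 2 of 13.

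Of 29 pallial transcription factor genes, 19 were higher in hippocampus and 2 higher in striatum, with a median of -1.36, and the counts were 21 and 2 without animals 971 and 974. Neurod6, expressed in maturing excitatory neurons, was at 73.3, 76.5, 80.3 and 78.1 in hippocampus and 1.01, 0.518, 2.68 and 1.20 in striatum (-5.13 ± 0.20). Fezf2, known for deep-layer cortical neurons, was at 38.02 ± 2.93 against 2.86 ± 1.15 (-3.39), Bhlhe22 at 10.9 ± 2.50 against 0.216 ± 0.192 (-3.28) and Tbr1 at 13.7 ± 1.18 against 2.12 ± 0.776 (-2.26). Emx1, a homeobox gene of the embryonic pallium, was at 2.12, 3.99, 1.27 and 2.19 in hippocampus and listed at 0 in every striatal library. The nuclear factor I genes Nfix (-2.01) and Nfib (-1.56) were higher in hippocampus, and Nfia was at 14.2 ± 1.96 and 11.5 ± 3.95 (adjusted p = 0.23). Klf9 (0.94) and Pou3f2 (0.72) were the 2 members higher in striatum. Klf9 and Pou3f2 did not pass without animal 971 (adjusted p from 0.058 to 0.072). Nfia passed without animals 971 and 974 (-0.76, adjusted p = 0.0075) and with GC correction (-0.57, adjusted p = 0.022). Pallial transcription factor genes higher in striatum and in hippocampus numbered 0 and 19 without animal 971.

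Receptors for the modulatory transmitters differed subtype by subtype. Of the muscarinic acetylcholine receptor genes, Chrm4, which is coupled to the inhibiting G protein, was higher in striatum (8.24 ± 2.23 against 1.89 ± 0.178, 1.64), as was Chrm2 (0.74), and Chrm1 (8.49 ± 1.37 against 16.9 ± 0.804, -0.93), Chrm3 (-1.52) and Chrm5 (-1.24) were higher in hippocampus. The nicotinic subunit genes Chrna5 (-1.43), Chrna7 (-0.96) and Chrna4 (-0.85) were also higher in hippocampus. Over all 9 acetylcholine receptor genes tested, 2 were higher in striatum and 6 in hippocampus. Among the 13 serotonin receptor genes the split was 4 and 4: Htr1b (21.4 ± 7.19 against 3.28 ± 0.535, 2.32), Htr1d (1.58), Htr2c (1.16) and Htr2a (0.63) were higher in striatum, and Htr1a (0.615 ± 0.525 against 10.4 ± 1.63, -2.86), Htr5b (-2.71), Htr3a (-1.14) and Htr4 (-0.68) in hippocampus. Among 8 tested genes of dopamine receptors and dopamine neurons, 3 were higher in striatum and 1 in hippocampus. Drd5, the other gene of the D1 type of dopamine receptor, was at 5.05 ± 0.328 in hippocampus and 1.36 ± 0.704 in striatum (-1.41). For noradrenaline receptors the split was 1 and 2 of 4 tested. Adra1d was at 13.9, 16.8, 12.2 and 16.005 in hippocampus and 0.0605, 1.09, 0.120 and 0 in striatum (-3.64 ± 0.19), and Adra2c was at 9.21 ± 1.57 in striatum and 3.61 ± 0.523 in hippocampus (1.14). Chrm2 did not pass without animal 970, 971, 974 or 977 (adjusted p from 0.058 to 0.087). Htr4 did not pass without animal 970, 971 or 974 or without animals 971 and 974 together (adjusted p from 0.089 to 0.12). Htr2a did not pass without animal 971 or 977 (adjusted p from 0.066 to 0.076). The call of Chrm2 was also lost with GC correction, with no level filter or within animals 971 and 974 (adjusted p from 0.060 to 0.10). Chrm2 differed by 0.47 with GC correction. The call of Htr2a was also lost with GC correction (adjusted p = 0.10). Htr2a differed by 0.35 with GC correction. The call of Htr4 was also lost with no level filter or within animals 971 and 974 (adjusted p from 0.063 to 0.10). For acetylcholine receptor genes the counts higher in striatum and in hippocampus were 2 and 6 of 9 tested without animals 971 and 974, and for serotonin receptor genes 4 and 4 of 13, and for dopamine receptors and dopamine neuron genes 6 and 1 of 10. For adrenergic receptor genes the counts higher in striatum and in hippocampus were 1 and 2 of 5 tested without animals 971 and 974.

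Of 11 tested genes on the opioid and cannabinoid list, 4 were higher in striatum and 5 in hippocampus. All 3 classic opioid receptor genes were higher in striatum. Oprk1, the dynorphin receptor gene, was at 7.10, 14.1, 18.3 and 6.95 in striatum and 0.609, 0.577, 0.384 and 0.323 in hippocampus (2.995 ± 0.26), Oprm1 at 8.91 ± 0.821 and 2.35 ± 0.612 (1.58), and Oprd1 at 9.56 ± 3.70 and 3.76 ± 0.416 (1.08). The cannabinoid receptor gene Cnr1 was also higher in striatum (138 ± 22.5 against 67.5 ± 3.07, 1.003), while 4 genes for the turnover of its ligands were higher in hippocampus: the degrading enzyme gene Faah was at 17.3, 19.99, 18.7 and 20.8 in hippocampus and 2.36, 1.86, 2.57 and 2.81 in striatum (-2.58 ± 0.14), and Napepld (-1.93), Dagla (-0.92) and Abhd6 (-0.69) had the same sign. The turnover genes Daglb (7.28 ± 0.0915 in hippocampus and 5.06 ± 1.63 in striatum, adjusted p = 0.088) and Mgll (6.67 ± 0.515 and 5.43 ± 1.25, adjusted p = 0.20) did not pass. Of 10 tested adenosine and purine receptor genes, 5 were higher in striatum and 1 in hippocampus. Adora1, the adenosine receptor gene that lowers cyclic AMP, was higher in hippocampus (13.1 ± 0.576 against 6.64 ± 0.675, -0.89), opposite to Adora2a. Nt5e, which makes adenosine outside cells, was at 5.64 ± 1.01 in striatum and 1.29 ± 0.345 in hippocampus (1.54), and the ATP receptor gene P2ry1 at 5.18 ± 1.18 and 0.522 ± 0.147 (2.01). Abhd6 did not pass without animal 971 (adjusted p = 0.052). Daglb passed with 16 libraries in the fit (-0.46, adjusted p = 0.020), with 16 libraries and no block (-0.46, adjusted p = 0.034) and within animals 971 and 974 (-0.77, adjusted p = 0.035). Opioid and cannabinoid receptor genes higher in striatum and in hippocampus numbered 4 and 3 without animal 971. For opioid and cannabinoid receptor genes the counts higher in striatum and in hippocampus were 5 and 5 of 12 tested without animals 971 and 974, and for adenosine and purine receptor genes 6 and 1 of 12.

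Of 21 neuropeptide receptor genes, 11 were higher in hippocampus and 1 in striatum. The somatostatin receptor genes Sstr3 (8.77 ± 0.517 against 0.213 ± 0.116, -3.01), Sstr4 (22.7 ± 3.80 against 3.77 ± 1.79, -2.37) and Sstr1 (-1.78) and the neuropeptide Y receptor genes Npy2r (-1.81) and Npy1r (-1.54) were higher in hippocampus, and so was the oxytocin receptor gene Oxtr (-1.58). Tacr1, the substance P receptor gene, was the 1 exception, at 12.02, 15.4, 12.3 and 11.6 in striatum and 0.569, 0.803, 0.569 and 0.356 in hippocampus (3.13 ± 0.13). Of 22 peptide precursor and processing genes, 9 were higher in striatum and 5 in hippocampus. Beside Cck, the hippocampal ones included Grp, gastrin-releasing peptide, at 12.5, 10.3, 10.6 and 10.6 in hippocampus and 0, 0, 0.645 and 0 in striatum (-3.40 ± 0.19), and the granule protein gene Chgb (343 ± 14.7 against 109.8 ± 11.04, -1.64). Nts, neurotensin, was higher in striatum (12.9 ± 1.02 against 4.41 ± 1.13, 1.38). The number of peptide genes higher in hippocampus was 9 without animals 971 and 974. Neuropeptide precursor genes higher in striatum and in hippocampus numbered 5 and 5 without animal 971. For neuropeptide receptor genes the counts higher in striatum and in hippocampus were 1 and 11 of 21 tested without animals 971 and 974.

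Glutamate receptor genes also divided by subtype. Of 7 metabotropic receptor genes tested, 6 were higher in striatum, led by Grm4 (20.1 ± 4.58 against 2.30 ± 0.546, 2.66) and Grm3 (1.39). Grm2 was the 1 gene higher in hippocampus, at 11.6, 15.4, 10.3 and 13.3 there and 0.393, 0.280, 0.0867 and 0.437 in striatum (-3.39 ± 0.15). Of 17 ionotropic subunit genes, 4 were higher in striatum, among them Grik2 (34.2 ± 12.5 against 10.6 ± 0.517, 1.54) and Gria4 (0.98), and 8 higher in hippocampus, among them the NMDA receptor genes Grin2a (38.4 ± 3.12 against 13.04 ± 0.133, -1.48) and Grin2b (-0.91) and the AMPA receptor gene Gria1 (58.01 ± 3.86 against 22.8 ± 4.52, -1.33). Gria2, the subunit gene that limits calcium flow through AMPA receptors, was at 111 ± 4.52 and 102 ± 23.4 (adjusted p = 0.46). The GABA receptor genes were split 4 to 5 over 14 tested. Gabra5, an alpha subunit of receptors outside synapses, was at 118, 117, 146 and 120.5 in hippocampus and 16.6, 24.5, 51.2 and 19.1 in striatum (-2.26 ± 0.22). Gabrg3 (2.21), Gabrd (1.70) and Gabra4 (1.42) were higher in striatum, and Gabra2 was at 87.96 ± 6.28 and 81.7 ± 33.2 (adjusted p = 0.49). Gria4 did not pass without animal 971 (adjusted p = 0.081). Gria2 passed without animals 971 and 974 (-0.35, adjusted p = 0.021) and with GC correction (-0.56, adjusted p = 0.0037). Gabra2 passed without animals 971 and 974 (-0.60, adjusted p = 0.0062) and with GC correction (-0.55, adjusted p = 0.011). Gabrg3 differed by 1.61 without animals 971 and 974. Metabotropic glutamate receptor genes higher in striatum and in hippocampus numbered 3 and 1 without animal 970, and 2 and 1 without animal 971. Ionotropic glutamate receptor genes higher in striatum and in hippocampus numbered 2 and 5 without animal 971. For metabotropic glutamate receptor genes the counts higher in striatum and in hippocampus were 5 and 1 of 7 tested without animals 971 and 974, and for ionotropic glutamate receptor genes 5 and 7 of 17, and for GABA receptor subunit genes 3 and 8 of 14.

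Ion channel genes showed large differences in both directions. Of 38 potassium channel genes, 12 were higher in striatum and 14 in hippocampus. Kcnj6, a subunit of the potassium channels that G proteins open, was at 16.5, 16.99, 17.1 and 13.7 in hippocampus and 0.599, 0.836, 1.17 and 0.708 in striatum (-3.23 ± 0.14). Kcnj2, an inward rectifier gene that holds striatal projection neurons at a negative resting potential, was at 22.95, 28.3, 30.3 and 23.5 in striatum and 5.26, 3.63, 6.25 and 3.82 in hippocampus (2.26 ± 0.15), and Kcnj4 (1.48) moved the same way. Kcnh4 was at 10.3 ± 2.18 against 0.454 ± 0.121 (2.94). All 4 genes of the Kcnc family were higher in hippocampus, from Kcnc4 (-2.45) to Kcnc1 (-0.53). Scn4b was at 157, 182, 164 and 141 in striatum and 1.98, 1.82, 1.65 and 1.72 in hippocampus, and 8 of the 27 sodium and calcium channel genes tested were higher in striatum and 5 in hippocampus. Calcium store channels were split as well: Itpr1 (177 ± 28.1 against 56.97 ± 4.42, 1.61), Ryr3 (1.47) and Ryr1 (1.25) were higher in striatum and Ryr2 (10.4 ± 0.263 against 28.3 ± 1.64, -1.36) in hippocampus. Pcp4, a calmodulin-binding peptide gene, was at 1302, 1795, 2747 and 947 in striatum and 127, 124, 135 and 107 in hippocampus (3.67 ± 0.21), highest in striatal inputs 971 and 974, and at 3.23 without those animals. Kcnc1 did not pass without animal 970 or 971 (adjusted p from 0.068 to 0.093). The call of Kcnc1 was also lost with GC correction or within animals 971 and 974 (adjusted p from 0.054 to 0.39). Kcnc1 differed by -0.18 with GC correction. Voltage-gated sodium and calcium channel genes higher in striatum and in hippocampus numbered 6 and 3 without animal 971. For voltage-gated potassium channel genes the counts higher in striatum and in hippocampus were 13 and 13 of 38 tested without animals 971 and 974, and for voltage-gated sodium and calcium channel genes 11 and 7 of 27.

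Synaptic vesicle genes were more often higher in hippocampus, 17 of 37 against 7 higher in striatum. The sensor genes Syt17 (37.05 ± 5.96 against 1.52 ± 0.974, -3.97) and Syt7 (-1.21) and the vesicle protein gene Sv2b (89.5 ± 6.46 against 37.2 ± 17.8, -1.35) were higher in hippocampus, and Syt6 (24.2 ± 6.06 against 1.19 ± 0.125, 3.49) and Sv2c (49.8, 48.6, 46.97 and 51.7 against 7.12, 5.79, 5.29 and 3.54, 2.996) in striatum. Syp, the synaptophysin gene, was at 517, 521, 442 and 526 in hippocampus and 157, 67.7, 33.4 and 196 in striatum (-2.44 ± 0.37, adjusted p = 0.0048). Its lowest values were those of striatal inputs 971 and 974. Of 37 axon guidance genes, 19 were higher in hippocampus, among them the ligand gene Slit1 (17.8 ± 0.499 against 1.33 ± 0.533, -3.04) and the semaphorin receptor genes Nrp1 (-2.36), Plxna1 (-2.67) and Plxna4 (-1.82), and 9 in striatum, among them Sema3a (1.62), Plxnd1 (1.45) and Ephb1 (1.26). Of 24 cadherin and protocadherin genes, 10 were higher in striatum, led by Cdh7 (2.29) and Cdh13 (53.99 ± 5.22 against 16.1 ± 2.02, 1.69), and 7 in hippocampus, led by Pcdh20 (26.9, 25.4, 29.97 and 23.4 against 1.47, 2.31, 3.13 and 1.74, -3.14) and Pcdh19 (-2.21). Of the leucine-rich synaptic organisers, Lrrtm3 was at 38.5 ± 6.19 in striatum and 7.80 ± 0.425 in hippocampus (2.15) and Lrrtm1 at 28.8 ± 3.98 and 62.7 ± 1.53 (-1.10). Syp differed by -1.58 without animals 971 and 974. Synaptic vesicle genes higher in striatum and in hippocampus numbered 5 and 11 without animal 970, and 6 and 8 without animal 971. Cadherin genes higher in striatum and in hippocampus numbered 5 and 4 without animal 971. For synaptic vesicle genes the counts higher in striatum and in hippocampus were 8 and 19 of 37 tested without animals 971 and 974, and for axon guidance genes 10 and 20 of 38, and for cadherin genes 9 and 8 of 24.

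Myelin genes were mostly higher in striatum. Of 21 oligodendrocyte and myelin genes tested, 15 were higher in striatum and 0 in hippocampus, with a median of 1.05. Without animals 971 and 974 the counts were 21 of 22 and 0. The summed level of the list ran from 936 to 1131 in the striatal and 433 to 495 in the hippocampal libraries. Mal, a gene of a myelin membrane protein, was at 85.6, 84.4, 76.2 and 83.6 in striatum and 29.4, 30.8, 35.6 and 33.2 in hippocampus (1.33 ± 0.12, adjusted p = 5.74e-04) and Mobp at 45.95 ± 9.99 against 18.6 ± 2.51 (1.24). Mbp, the myelin basic protein gene, was at 74.3, 34.05, 34.1 and 75.2 in striatum and 33.5, 32.7, 32.03 and 38.01 in hippocampus (adjusted p = 0.098), low in 971 and 974, and its difference without these animals was 1.04 (adjusted p = 0.0020). Of 11 precursor genes, 4 were higher in striatum and 1 in hippocampus. Mbp passed with GC correction (0.65, adjusted p = 0.045). Oligodendrocyte precursor genes higher in striatum and in hippocampus numbered 1 and 1 without animal 970, 0 and 1 without animal 971, 2 and 1 without animal 974, and 1 and 1 without animal 977. For oligodendrocyte precursor genes the counts higher in striatum and in hippocampus were 3 and 1 of 11 tested without animals 971 and 974.

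Of 28 astrocyte genes, 4 were higher in hippocampus and 1 higher in striatum, with a median of -0.22. Gfap, the intermediate filament gene, was at 17.9, 18.5, 15.6 and 17.8 in hippocampus and 3.74, 1.82, 1.25 and 4.65 in striatum (-2.35 ± 0.23, adjusted p = 7.92e-04). Id4, the 1 gene higher in striatum, was at 42.2, 67.5, 38.03 and 32.1 there and 10.4, 8.85, 10.5 and 9.28 in hippocampus (2.04 ± 0.20). Aldoc (-0.61), Sox9 (-0.49) and Clu (-0.38, adjusted p = 0.0496) completed the called genes. The glutamate transporter gene Slc1a2 was at 385 ± 46.5 in hippocampus and 399 ± 76.3 in striatum (adjusted p = 0.86) and the glutamine synthetase gene Glul at 249 ± 53.6 and 241 ± 33.2 (adjusted p = 0.85). The counts were 7 and 2 without animals 971 and 974. Aldoc did not pass without animal 970, 971 or 974 (adjusted p from 0.064 to 0.14). Sox9 did not pass without animal 970, 971 or 974 or without animals 971 and 974 together (adjusted p from 0.053 to 0.12). Clu did not pass without animal 970, 971, 974 or 977 (adjusted p from 0.073 to 0.20). The call of Aldoc was also lost with 16 libraries and no block, with no level filter, without the block or without striatal inputs 971 and 974 and the block (adjusted p from 0.0507 to 0.75). The call of Sox9 was also lost within animals 971 and 974 or without striatal inputs 971 and 974 and the block (adjusted p from 0.067 to 0.10). The call of Clu was also lost with GC correction, with 16 libraries and no block, with no level filter, without the block, with an untrended variance, with pseudocount 5 or without striatal inputs 971 and 974 and the block (adjusted p from 0.053 to 0.53). Clu differed by -0.080 with GC correction. Astrocyte genes higher in striatum and in hippocampus numbered 1 and 1 without animal 970, 1 and 1 without animal 971, and 1 and 1 without animal 974.

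Of 17 microglia genes, 7 were higher in striatum and 0 in hippocampus, with a median of 0.26. Cd68, a lysosomal membrane protein gene, was at 9.34 ± 1.65 against 4.50 ± 0.961 (0.91), and Cx3cr1, the fractalkine receptor gene, at 10.3 ± 2.78 against 6.31 ± 1.13 (0.62). Tmem119 was at 8.78, 4.57, 3.33 and 9.57 in striatum and 6.06, 6.09, 6.22 and 5.54 in hippocampus (adjusted p = 0.96). The striatal values of Tmem119 were low in 971 and 974, and the count of the list was 9 of 17 without these animals. Endothelial genes passed in 2 cases for striatum and 1 for hippocampus of 11, and Flt1 was at 3.24 ± 0.359 and 2.49 ± 0.309 (adjusted p = 0.16). Of 11 tested mural and meningeal genes, 2 were higher in hippocampus and 0 in striatum, with a median of -0.34. One of them, the fibroblast gene Dcn, was at 19.6, 13.5, 19.4 and 18.2 in hippocampus and 1.62, 1.93, 1.49 and 1.498 in striatum (-2.82 ± 0.17). Cx3cr1 did not pass without animal 970, 971 or 974 (adjusted p from 0.058 to 0.078). The call of Cx3cr1 was also lost within animals 971 and 974 or without striatal inputs 971 and 974 and the block (adjusted p from 0.0508 to 0.081). Tmem119 passed without animals 971 and 974 (0.58, adjusted p = 0.027). Microglia genes higher in striatum and in hippocampus numbered 2 and 0 without animal 971. Endothelial genes higher in striatum and in hippocampus numbered 0 and 0 without animal 971. For endothelial genes the counts higher in striatum and in hippocampus were 3 and 1 of 11 tested without animals 971 and 974, and for mural and meningeal genes 0 and 2 of 12.

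Of 16 pan-neuronal genes, 8 were higher in hippocampus and 0 in striatum, with a median of -0.56. Stmn2 was at 136 ± 9.41 against 43.7 ± 6.31 (-1.63), and Snap25 at 2146, 2105, 2318 and 2163 in hippocampus and 1346, 1768, 1836 and 1189 in striatum (-0.53 ± 0.15, adjusted p = 0.039). Map2 (70.6 ± 3.71 and 66.2 ± 11.8, adjusted p = 0.53) and Rbfox3 (12.8 ± 0.610 and 10.3 ± 2.20, adjusted p = 0.13) did not pass. Syn1 was at 72.98, 134, 261 and 61.8 in striatum, highest in 971 and 974, and at 132, 124, 141 and 115 in hippocampus (adjusted p = 0.67), and without those animals its difference was -0.87 (adjusted p = 0.0018). Without animals 971 and 974, Gap43 passed with a higher level in striatum (0.41). Snap25 did not pass without animal 970, 971, 974 or 977 (adjusted p from 0.060 to 0.16). The call of Snap25 was also lost with 16 libraries in the fit, with 16 libraries and no block, with no level filter or within animals 971 and 974 (adjusted p from 0.056 to 0.14). Map2 passed without animals 971 and 974 (-0.28, adjusted p = 0.046). Pan-neuronal genes higher in striatum and in hippocampus numbered 0 and 4 without animal 971. For pan-neuronal genes the counts higher in striatum and in hippocampus were 1 and 10 of 16 tested without animals 971 and 974.

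Genes of tissue next to the dissected regions were checked in the same way, and their part in the results was not tested. On the thalamic list 3 of 8 tested genes were higher in striatum and 3 in hippocampus, on the septal, pallidal and hypothalamic list 3 and 0 of 3, and on the choroid plexus and ependymal list 2 and 2 of 9. Summed levels of the thalamic list were 20.2 to 26.6 in the hippocampal and 25.1 to 27.3 in the striatal libraries, and those of the septal, pallidal and hypothalamic list 8.09 to 11.2 and 23.6 to 32.1. Of the 16 names on the latter list, the 3 tested included Lhx8 and Nts, which also stand on the cholinergic and peptide lists above. Lhx8 passed the level filter through the striatal libraries alone, so this list is not specific to neighbouring tissue. Lhx9 of the thalamic list was at 1.84, 1.74, 1.91 and 1.55 in hippocampus and listed at 0 in every striatal library. Of 13 neocortical layer genes, 5 were higher in hippocampus and 3 in striatum, among them Rprm (3.62 ± 0.294 against 0.563 ± 0.399, -1.60) and Lamp5 (26.5 ± 4.23 in striatum against 9.05 ± 1.40, 1.45). Ttr, the transthyretin gene of the choroid plexus, varied between libraries and was at 0.704, 1.43, 2.09 and 11.5 in hippocampus and 0.357, 0, 1.42 and 0.340 in striatum (adjusted p = 0.087). Clic6, a chloride channel gene also known from choroid plexus, was at 4.88, 3.98, 2.08 and 5.21 in striatum and 0.0510, 0.0245, 0 and 0.0416 in hippocampus (2.24 ± 0.20), the opposite order to Kl, the klotho gene (4.34 ± 1.06 in hippocampus against 0.715 ± 0.278, -1.63). Of 9 tested newborn neuron and proliferation genes, 3 were higher in striatum, among them Top2a (1.36 ± 0.247 against 0.388 ± 0.194, 0.77), and 2 in hippocampus, with a median of -0.01. Top2a did not pass without animal 971 (adjusted p = 0.058). Thalamic neighbour genes higher in striatum and in hippocampus numbered 1 and 2 without animal 971. Newborn neuron and proliferation genes higher in striatum and in hippocampus numbered 0 and 1 without animal 971, and 1 and 1 without animal 974. For thalamic neighbour genes the counts higher in striatum and in hippocampus were 2 and 3 of 9 tested without animals 971 and 974, and for septal, pallidal and hypothalamic neighbour genes 3 and 0 of 3, and for choroid plexus and ependymal genes 2 and 2 of 8. For neocortical layer neighbour genes the counts higher in striatum and in hippocampus were 3 and 7 of 13 tested without animals 971 and 974, and for newborn neuron and proliferation genes 1 and 3 of 9.

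Of 21 immediate early genes, which neurons switch on within minutes of activity, 6 were higher in striatum and 6 in hippocampus. Egr1 was at 129, 151, 138 and 145 in striatum and 49.01, 53.6, 73.6 and 94.1 in hippocampus (1.09 ± 0.17, adjusted p = 0.0052). Jun was at 30.4, 21.5, 27.5 and 25.8 in hippocampus and 4.81, 5.72, 3.88 and 4.68 in striatum (-2.24 ± 0.16). Fos was at 1.55, 2.24, 3.59 and 5.35 in hippocampus and 0.969, 2.31, 5.78 and 4.11 in striatum (adjusted p = 0.94), and Arc at 15.4 ± 6.06 and 12.2 ± 5.84 (adjusted p = 0.13). Of 16 tested neurotrophic factor genes, 3 were higher in striatum and 4 in hippocampus. Bdnf, a growth factor of activity-driven neurons, was at 1.12, 1.22, 1.09 and 1.31 in hippocampus and 0.0329, 0.00846, 0.0262 and 0.0141 in striatum (-1.10 ± 0.14). Of 33 nuclear respiratory chain genes, 9 were higher in hippocampus and 1 in striatum, with a median of -0.25. Ndufs3 was the one higher in striatum (0.48), and the ATP synthase gene Atp5b was at 881 ± 68.8 and 761 ± 115 (adjusted p = 0.20). Ndufs3 did not pass without animal 970, 971 or 977 (adjusted p from 0.099 to 0.17). The call of Ndufs3 was also lost with no level filter, unscaled, with an untrended variance, with upper quartile scaling or within animals 971 and 974 (adjusted p from 0.0501 to 0.13). Immediate early genes higher in striatum and in hippocampus numbered 3 and 6 without animal 971. Respiratory chain genes higher in striatum and in hippocampus numbered 0 and 5 without animal 970, 0 and 1 without animal 971, and 1 and 5 without animal 974. For immediate early genes the counts higher in striatum and in hippocampus were 6 and 6 of 21 tested without animals 971 and 974, and for neurotrophic factor genes 7 and 4 of 19, and for respiratory chain genes 1 and 9 of 33.

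Whether a regional difference was the same in astrocyte ribosome RNA was tested as the input difference minus the IP difference over all 16 libraries. Of 13449 genes tested, 2066 (15.4%) differed, 1033 with the input difference above the IP difference (7.68%) and 1033 with it below (7.68%). Input and IP share the animals and the tissue, and levels in this paragraph are scaled over the 16 libraries. Ppp1r1b rose from 11.1 in hippocampal to 339 in striatal input, and stood at 74.04 and 105 in the IPs, so the input difference of 4.60 (from the fit of the 8 inputs) stood beside an IP difference of 0.50 (input minus IP 4.10, adjusted p = 1.93e-05). Pde7b (8.63 and 105 in input, 25.8 and 30.2 in IP) had the same pattern. Slc5a7 (0.263 and 14.8 in input, 0.0499 and 0.418 in IP) was near 0 in IP, where the added 1 makes the difference too small. Crym, which encodes a thyroid hormone-binding protein, was the reverse: it was higher in hippocampus in input (83.3, 73.1, 92.7 and 94.1 against 43.6, 50.3, 46.8 and 60.4 on the input scale, -0.76) and higher in striatum in IP (8.50 against 284, 4.95), a difference of -5.69 (adjusted p = 1.02e-06). Gabbr2, a GABA-B receptor subunit gene, was at 70.7 in hippocampal and 16.2 in striatal input and at 16.7 and 46.3 in IP, and Dkk3, a secreted Wnt modulator gene, at 167 and 42.6 and at 219.7 and 435. Side by side, 1106 of the 3767 genes called in input (29.4%) were called in the same direction in IP and 74 in the opposite one. The IP comparison called 1975 of 13449 genes (14.7%), so the shared calls were 56.0% of its list. It was read from the fit of all 16 libraries, whereas the 3767 input calls are from the fit of the 8 inputs. These shares therefore set unlike fits side by side. Neuron genes were among the IP calls, as for Penk (4.91), Drd2 (4.78) and Slc17a7 (-3.21). In IP, 18 of 20 shared striatal projection neuron genes were higher in striatum and 0 in hippocampus. The same counts were 1 and 11 of 22 pallial glutamatergic neuron genes, and 2 and 0 of 16 pan-neuronal genes. Shared calls thus cannot be read as differences of astrocytes alone, and the source of these transcripts in IP was not tested. With all 16 libraries in the fit, the input comparison called 5219 genes (40.8%). Without striatal inputs 971 and 974 the difference was called for 1990 genes, 712 above and 1278 below. It was called for 994 without animal 970 and for 786 without animal 971. On unscaled FPKM the split was 664 above and 1710 below.

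**Figure D4:**
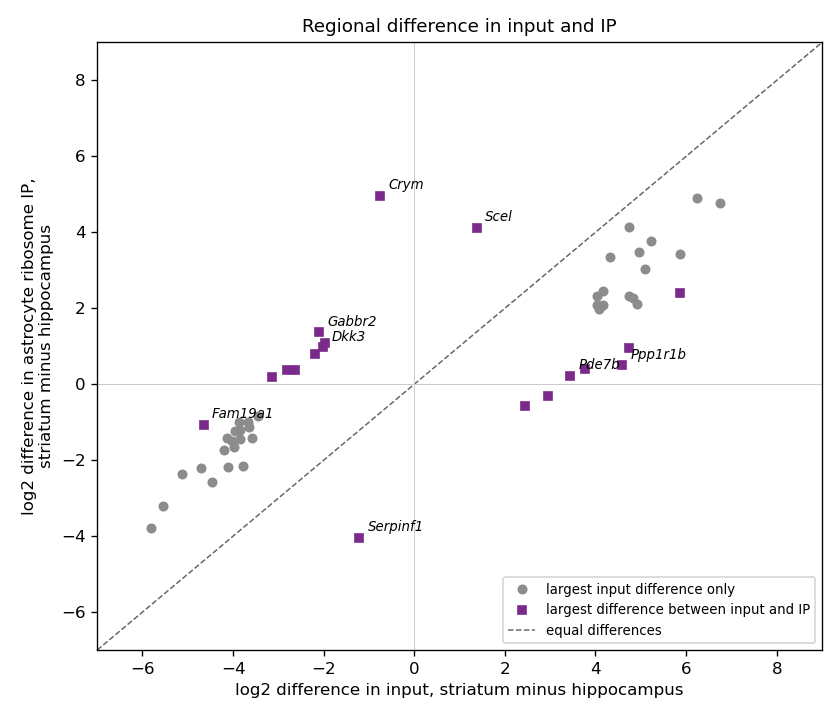
Regional difference (log2, striatum minus hippocampus) in astrocyte ribosome IP (y axis) against that in input (x axis) for 39 of the 40 genes of largest input difference and 18 of the 20 genes of largest difference between the 2; points are genes and the dashed line marks equal differences. Crym lies at -0.76 in input and 4.95 in IP, and Ppp1r1b at 4.60 and 0.50.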

How the data were processed

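RNA of 8 cleared lysates and 8 ribosome precipitates was sequenced. Per the submitters' processing notes the tools were bcl2fastq 2.17, STAR and HTSeq with build mm10, and their roles and settings are not given in the sources used here. The deposited tables hold FPKM per gene as the authors made them, the unit being read from the values. Depth was estimated from ratios of low values between libraries and from the exon lengths of 623 genes. Of 1360 genes of low level picked with that depth, 97.7% had values within 0.05 of whole-read steps. Of 24060 labels per table, 27 turned into dates and were left out, 24033 were used, and 23642 matched GENCODE symbols. Values were divided by a trimmed-mean factor per library (0.836 to 1.07, trims 30% and 5%), and genes with at least 1 FPKM in at least 4 of the 8 inputs were tested as log2(FPKM + 1) with limma 3.58.1 in R 4.3.3, with the animal as a block, a trended robust variance and Benjamini-Hochberg adjustment over all genes tested. P-values of the main fit rest on how the regional difference varies among 4 animals, with 3 residual degrees of freedom. The spread between animals that both regions share is taken up by the block. Fits without animals 971 and 974, or within them, keep 1 residual degree of freedom. Their p-values therefore rely more on the variance that limma shares across genes, and their calls are less well supported by replicates. Same-numbered libraries come from the same animal by label, and their deviations correlated at 0.06, 0.05, 0.30 and 0.33. The highest correlation of each hippocampal library with the striatal library of another animal was 0.03, 0.09, 0.095 and 0.13. For animal 971 that value was above its own pair, so the values do not establish the pairing of each animal. Alternatives were no block, all 16 libraries, other scalings, pseudocounts, filters and variance models, leaving out each animal, leaving out libraries 971 and 974, and GC correction. The fit was tested on simulated data with the levels and spread of the hippocampal inputs. The lower depth and GC trend of striatal inputs 971 and 974 were not part of the simulated fits, so that test does not cover them. Named genes are the 20 largest per direction that were called, had 1 sign in all 4 animals and a mean of at least 5 FPKM, list members, Aldh1l1, Crym, Gfap and Rpl22, the 10 largest per direction for input against IP, and genes singled out in the closing section, and some genes that these rules pick are not reported here. The members and gene lists were chosen with earlier results of these data known. Of the 240 tested genes named, 34 overlap a gene on the other strand, and the strand used in counting is not given in the sources used here. Promoter sequences are from RefSeq on GRCm38.p6.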

Additional observations from a re-analysis of the deposited data

Results flagged for a closer look

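Within a group of 4 libraries, a value was singled out where its gap to the nearest of the others exceeded 0.829 of the group's range. Of 482 groups of 4 examined, 31 held such a value, and chance gives about 1 in 20. The library was striatal input 974 in 6 cases, striatal input 971 in 1 and striatal input 977 in 7, and hippocampal inputs 970, 971, 974 and 977 in 4, 1, 5 and 7. In hippocampal input 971 the value stood apart for Adora2a (0.634 against 0.122 to 0.183). In striatal input 971 the value stood apart for Adra1d (1.09 against 0 to 0.120). In striatal input 977 the value stood apart for Arc (20.9 against 8.40 to 10.04), Cpne7 (2.64 against 0.700 to 0.969), Gabbr2 (21.7 against 17.5 to 17.9) and Kcnc2 (6.51 against 3.12 to 3.67). Also in striatal input 977 the value stood apart for Oxtr (1.81 against 1.02 to 1.13), Slc17a6 (2.55 against 0.129 to 0.534) and Vip (1.29 against 0.189 to 0.367). In hippocampal input 970 the value stood apart for C1ql2 (13.7 against 8.67 to 9.48), Cx3cr1 (4.62 against 6.79 to 7.01), Grp (12.5 against 10.3 to 10.6) and Sox9 (18.8 against 13.5 to 14.3). In hippocampal input 977 the value stood apart for Cdr1 (407 against 554 to 561), Chrm2 (1.76 against 1.26 to 1.31), Kcnj6 (13.7 against 16.5 to 17.1) and Mir5120 (8.17, the other 3 listed at 0). Also in hippocampal input 977 the value stood apart for Pdyn (1.52 against 1.36 to 1.38), Rgs2 (13.9 against 12.2 to 12.5) and Ttr (11.5 against 0.704 to 2.09). In striatal input 974 the value stood apart for Fam19a1 (0.266 against 1.07 to 1.18), Grp (0.645, the other 3 listed at 0), Isl1 (12.1 against 8.04 to 8.56) and Lamp5 (32.8 against 23.9 to 25.4). Also in striatal input 974 the value stood apart for Shisa6 (9.58 against 2.83 to 3.50) and Syt7 (4.91 against 9.05 to 9.29). In hippocampal input 974 the value stood apart for Gabra4 (30.4 against 26.3 to 26.7), Gabra5 (146 against 117 to 120.5), Gnas (59.5 against 65.7 to 66.7) and Ppp1r1b (9.69 against 13.5 to 14.2). Also in hippocampal input 974 the value stood apart for Syp (442 against 517 to 526).

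The regional difference was not the same in input and IP for the following genes, by the test of the difference over 16 libraries (adjusted p from 8.62e-07 to 3.05e-04), and all 19 kept their call and sign under every alternative run for them. These genes were picked with 1 sign in all 4 animals, and the alternatives reuse the same libraries. Each value is the input difference minus the IP difference (log2), with the 2 differences in brackets. The input difference in brackets is from the fit of the 8 inputs with their own scaling, so the bracketed values need not subtract to the value printed. The input difference was the higher one, by 4.10 for Ppp1r1b (4.60 and 0.50), 3.59 for Ido1 (4.74 and 0.96) and 3.29 for Cd4 (5.86 and 2.41). It was also higher, by 3.28 for Gucy1a3 (2.96 and -0.32), 3.22 for Slc5a7 (3.77 and 0.41) and 3.22 for Pde7b (3.44 and 0.23). The last of these were 2.96 for Pdyn (2.45 and -0.56), 2.89 for Serpinf1 (-1.22 and -4.04) and 2.80 for Zic2 (below the level filter in input, and -3.003). The input difference was the lower one, at -5.69 for Crym (-0.76 and 4.95), -3.44 for Fam19a1 (-4.65 and -1.07) and -3.43 for Gabbr2 (-2.09 and 1.37). Next came -3.25 for Pcdh20 (-3.14 and 0.20), -3.06 for Mir218-1 (-2.80 and 0.36) and -2.97 for Rspo3 (-1.97 and 1.09). Then followed -2.96 for Gm2115 (-2.64 and 0.37) and -2.96 for Dkk3 (-2.01 and 0.98). The remaining values were -2.90 for Mdga1 (-2.19 and 0.80) and -2.79 for Scel (1.38 and 4.11). Some of these genes were low in IP, among them Ido1 (means of 0.0047 in hippocampal and 0.963 in striatal IP). Cd4 (0.081 and 5.18) and Slc5a7 (0.0499 and 0.418) were others. At such levels the added 1 makes the IP difference too small, which widens its gap to the input difference. Others were low in input, where the added 1 makes the input difference too small. Zic2 had means of 0.610 in hippocampal and 0.406 in striatal input, Serpinf1 4.27 and 1.44, and Scel 0.709 and 3.45.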

How the results depend on the processing

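The count of 3767 genes that differed between the input regions lay between 2854 and 5219 under the alternatives other than leaving out an animal. It ranged from 1746 (without animal 971) to 3276 when 1 animal was left out. The count for input against IP, 2066, lay between 1488 and 2552, and between 786 (without animal 971) and 1813 when 1 animal was left out, with 994 without animal 970. The cause was not tested. The animals pair the libraries by label. Without the replicate block 3619 genes were called between regions and 1871 between input and IP, and 5 of the 211 called genes named above did not pass. None of these 211 genes changed sign under any alternative run for it, 183 passed under all of them, and 27 did not pass without animal 971. The alternatives reuse the same libraries, so the common sign is not separate support. GC correction and the fit within animals 971 and 974 were chosen after the data were seen, and 7 and 10 of the called genes did not pass under them. The low depth of striatal inputs 971 and 974 limits genes of low level most. Of the 29 named genes that did not pass, 16 changed sign under an alternative, and the cause was not tested. Ache (0.033) was at -0.030 unscaled, -0.023 with pseudocount 0.1, -0.61 within animals 971 and 974 and -0.22 to 0.33 when 1 animal was left out. Aldh1l1 (-0.0047) was at 0.016 with 16 libraries in the fit, 0.016 with 16 libraries and no replicate block, 0.27 without those 2 striatal libraries, 0.049 without animals 971 and 974, 0.24 with GC correction and -0.14 to 0.10 when 1 animal was left out. Arc (-0.33) was at 0.055 with GC correction. Dlx1 (-0.15) was at 0.11 with GC correction, 0.46 within animals 971 and 974 and -0.54 to 0.11 when 1 animal was left out. Fos (-0.023) was at 0.0062 with pseudocount 5, 0.11 with GC correction, 0.32 within animals 971 and 974 and -0.22 to 0.11 when 1 animal was left out. Gabra2 (-0.19) was at 0.25 within animals 971 and 974. Glul (-0.035) was at 0.15 within animals 971 and 974 and -0.12 to 0.042 when 1 animal was left out. Gria2 (-0.14) was at 0.093 within animals 971 and 974. Map2 (-0.11) was at 0.089 within animals 971 and 974. Mgll (-0.27) was at 0.014 with GC correction. Nfia (-0.33) was at 0.10 within animals 971 and 974. Rbfox3 (-0.31) was at 0.072 with GC correction. Rn45s (-1.25) was at 0.10 without those 2 striatal libraries. Slc1a2 (0.038) was at -0.073 unscaled, -0.17 without those 2 striatal libraries, -0.23 without animals 971 and 974, -0.11 with GC correction and -0.049 to 0.14 when 1 animal was left out. Syn1 (-0.18) was at 0.18 with GC correction, 0.52 within animals 971 and 974 and -0.54 to 0.057 when 1 animal was left out. Tmem119 (0.019) was at -0.066 unscaled, -0.0043 with upper quartile scaling, -0.52 within animals 971 and 974 and -0.21 to 0.27 when 1 animal was left out.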

Other observations

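Genes without a protein product were counted by annotated type. Of 138 tested lincRNA genes 35 were higher in striatum and 11 in hippocampus, of 253 miRNA gene rows 35 and 10, and of 184 antisense genes 39 and 19, beside 1607 and 1895 of 11819 protein-coding genes. Short miRNA rows rest on few fragments and many lie within a host gene. Counts by type were not repeated without animals 971 and 974, so the part of the GC trend and low depth of those striatal inputs was not tested. Malat1, an abundant nuclear RNA, was at 4011, 8088, 10793 and 4066 in the striatal inputs and 2419, 3294, 3219 and 2744 in the hippocampal inputs, highest in striatal inputs 971 and 974, and its difference of 1.08 was 0.64 without those animals. It did not pass without animal 971 (adjusted p = 0.081). The row labelled Cdr1 was at 1214, 2676, 6602 and 574 in striatum and 554, 560.4, 561 and 407 in hippocampus (1.86, and 0.80 without animals 971 and 974), and it did not pass without animal 970 or without animal 971 (adjusted p = 0.0505 and 0.13). Its call was also lost without the block, with no level filter and without striatal inputs 971 and 974 (adjusted p = 0.056, 0.060 and 0.13). Rn45s, the row of the ribosomal RNA precursor, was lowest in the same libraries, at 4753, 1082, 499.8 and 4769.7, against 5091, 4944, 2905 and 5388 in hippocampus (adjusted p = 0.083), and it passed without animal 970 (adjusted p = 0.039) and within animals 971 and 974 (adjusted p = 4.02e-04). These 3 genes and Xist were chosen after their values were seen.

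Genes of the extracellular matrix and of the nets around inhibitory neurons were split 6 to 7 over 21 tested. Hapln4, a link protein gene of these nets, was at 37.04, 38.9, 33.9 and 39.97 in hippocampus and 6.12, 4.58, 3.71 and 7.51 in striatum (-2.60 ± 0.15, adjusted p = 1.25e-04), with no overlap between the regions. Of 14 steroid and thyroid hormone genes, 3 were higher in striatum and 6 in hippocampus, and the thyroid hormone receptor gene Thrb was at 8.52, 14.6, 18.4 and 8.26 in striatum and 5.97, 5.99, 6.88 and 6.67 in hippocampus (0.79 ± 0.21), at 0.35 without animals 971 and 974 (adjusted p = 0.094), and it did not pass without animal 971 or without animal 974 (adjusted p = 0.14 and 0.081) or with no level filter (adjusted p = 0.059). Of 33 synaptic adhesion and organiser genes, 6 were higher in striatum and 12 in hippocampus, and of 25 calcium handling genes 10 and 10. For extracellular matrix and perineuronal net genes the counts higher in striatum and in hippocampus were 4 and 7 of 21 tested without animals 971 and 974, and for steroid and thyroid hormone genes 2 and 5 of 15, and for synaptic adhesion and organiser genes 6 and 14 of 33. For calcium handling and calcium binding genes the counts higher in striatum and in hippocampus were 10 and 9 of 25 tested without animals 971 and 974.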
